A study of Mus musculus with 16 samples.

Results

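The mitochondrial respiratory chain was represented by 39 nuclear genes that encode subunits of complexes I to IV, 23 of complex I, 4 of complex II, 6 of complex III and 6 of complex IV. Members were measured by the probe sets whose platform annotation named one of these genes and no other. That held for 37 members, of 18193 genes with such a probe set in the series, and 79 member probe sets were read. The probe set for Ndufs6 also named Ndufs6b, and none named Cox7b alone, so neither gene was measured. All 37 were bright enough to be tested, among 12614 genes tested, which left 22 genes of complex I, 4 of complex II, 6 of complex III and 5 of complex IV. Each gene is described by its brightest probe set on the 430 2.0 arrays unless another is named.

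The samples were total RNA from mouse blastocysts, embryos made of an outer trophectoderm around an inner cell mass and a fluid cavity. The 4 groups were blastocysts treated with 20 µM SB203580, a p38 MAP kinase inhibitor, 25 µM SP600125, a JNK inhibitor, or 20 µM U0126, a MEK inhibitor, and control blastocysts labelled WT for which no treatment was named. Each group had 3 samples. Replicate 1 was read on a pair of 430A and 430B arrays after small-sample labelling, and replicates 2 and 3 were read on 430 2.0 arrays after two-cycle labelling. Strain, length of treatment, the number of embryos in a sample and any solvent given to the controls were not given in the sources used here. Since the labels do not call the replicates independent cultures, p-values measure only the spread between these samples, which may be technical.

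The respiratory chain sits in the inner mitochondrial membrane and passes electrons from NADH and succinate to oxygen. Complex I oxidises NADH, complex II is the succinate dehydrogenase of the citrate cycle, complex III passes electrons on to cytochrome c, and complex IV reduces oxygen to water. Complexes I, III and IV pump protons, and ATP synthase uses the gradient that results. All subunits of complex II and most of the others are encoded in the nucleus, while a small core is encoded in mitochondrial DNA. Preimplantation embryos turn from pyruvate and lactate towards glucose as they form a blastocyst, and oxygen consumption rises at that stage.

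The promoters of these genes are known for sites of NRF-1, of the ETS-family factor GABP and of YY1. RefSeq promoter windows of 300 bases (250 before to 50 after the start, GRCm38.p6) matched 29 of the 39 members by symbol, in 30 windows of 32851 in all. The NRF-1 core GCGCATGC, searched on both strands (its reverse complement is GCATGCGC), was present in 4 of the 30 member windows (13.3%), those of Ndufa6, Ndufa8, Sdhb and Uqcrc1, against 2.71% of all windows. The short ETS motif CCGGAA was present in 10 member windows (33.3%), against 14.9% of all windows, and the short YY1 motif ATGGCG likewise in 10 (33.3%), against 8.93%. The YY1 match lay after the start, and not before it, for Ndufa9, Ndufb5, Ndufc1, Ndufs4, Ndufs6 and Ndufs7. The longer ETS motif CCGGAAGT, which contains the short one, was present in 1 member window (3.33%) and in 3.89% of all windows. The motif AAGGTCA, bound by oestrogen-related receptors, was present in 1 member window (3.33%) and in 4.72% of all windows. The motifs and their lengths were chosen with matches in view, and a match is a description of letters only. A pair of 30-base stretches is shown as examples of the NRF-1 core, with the match in capitals, from chr4:140961206-140961235 (plus strand, upstream of Sdhb) and chr15:82354356-82354385 (minus strand, upstream of Ndufa6). The 250 bases before the start of Ndufv2, at chr17:66101560-66101809 (minus strand), are shown because Ndufv2 was the one member called in the fit of all samples described below. Its window held none of the 5 motifs, and 68% of the 250 bases were G or C.
Sdhb: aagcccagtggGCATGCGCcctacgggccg
Ndufa6: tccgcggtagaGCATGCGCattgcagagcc
Ndufv2: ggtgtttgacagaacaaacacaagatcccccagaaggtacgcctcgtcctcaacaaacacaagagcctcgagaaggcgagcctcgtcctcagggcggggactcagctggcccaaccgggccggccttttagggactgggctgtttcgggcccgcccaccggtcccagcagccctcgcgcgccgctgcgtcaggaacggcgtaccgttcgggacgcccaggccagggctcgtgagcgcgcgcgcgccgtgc

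Deposited values were linear signals, and on each array the mean with 2% trimmed at each end was 500. Median signals were 61.1 to 68.9 on the 6 arrays of type 430 2.0 from SB203580, SP600125 and control blastocysts, and 77.7 and 83.0 on those from U0126 blastocysts. On the 430A arrays medians were between 131.6 and 147.4, and on the 430B arrays between 223.8 and 230.9. All 6 trophectoderm markers and all 4 markers of the inner cell mass and epiblast had median signals above 100 on 430 2.0 arrays. So did all 4 of primitive endoderm, of which Gata4 was the dimmest at 123.4. Gata4 fell to 49.8 in replicate 3 of SP600125, below the median of that array (66.5). Of other cell types, the 5 measured markers of cumulus and granulosa cells had median signals of 27.6 to 113.1 on the 430 2.0 arrays. In replicate 1 one of these, Foxl2, read 1714 with SB203580, 1058 with SP600125, 1588 with U0126 and 1698 in the control sample, all above the medians of those arrays. Among uterine and oviduct markers Wfdc2 had a median of 1624 and the other 5 at most 122.3. Blood and immune markers had medians of at most 164.8, the highest of Cd68, which reached 223.9 in a single sample. No marker of these lists was listed at exactly 0. RNA was taken from whole blastocysts, so fewer cells of a type and less RNA per cell cannot be told apart.

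The subunit genes were bright in every sample. Averaged over the 8 arrays of type 430 2.0, member signals ran between 282.1 for Cox7c and 53085 for Uqcrb, a ubiquinone-binding subunit of complex III. Cox7c, a small subunit of complex IV, was the one dim member, and the next above it was Sdhc at 1837. Probe sets differ in how strongly they bind, so these signals are not levels to be compared between genes. Replicate 1 was read on another array type and read lower for all members, which is why every difference below was taken within array type.

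No subunit gene passed the test against control with any inhibitor. Changes are log2 differences of signal plus a constant of 12.6, fitted with limma with array type as a block, and a gene was called at a Benjamini-Hochberg adjusted p under 0.05 over 27022 probe sets. With SB203580, 0 of 37 members were called, against 0.634% of all genes tested (80 genes). With SP600125, 0 of 37 were called, against 0.904% (114 genes). U0126 likewise gave 0 of 37, against 0.658% (83 genes). At an unadjusted limma p under 0.05 there were 3, 3 and 2 members with SB203580, SP600125 and U0126, or 8.11%, 8.11% and 5.41%, against 11.4%, 10.2% and 13.4% of all genes. With background shares this low, 0 of 37 is near the background. The lowest adjusted p among members was 0.432 with SB203580, 0.225 with SP600125 and 0.192 with U0126.

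For most members the interval of the change was narrow. The 95% interval of the change lay within 1.5-fold in either direction for 34 of 37 members with SB203580, for 34 with SP600125 and for 33 with U0126. Those shares were 91.9%, 91.9% and 89.2%, where 34.4%, 35.7% and 33.3% of all genes had an interval within those limits. Intervals reached beyond 1.5-fold for Cox7c with every inhibitor, for Ndufs4 and Sdhd with SB203580 and U0126, and for Ndufb5 with SP600125 and U0126. That of Ndufv2 reached beyond it with SP600125, where the change was -0.40. The standard error of Ndufv2 was 0.12 with each inhibitor, so its interval was no wider there. The median standard error was 0.11 for members and 0.24 for all genes.

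**Figure D1:**
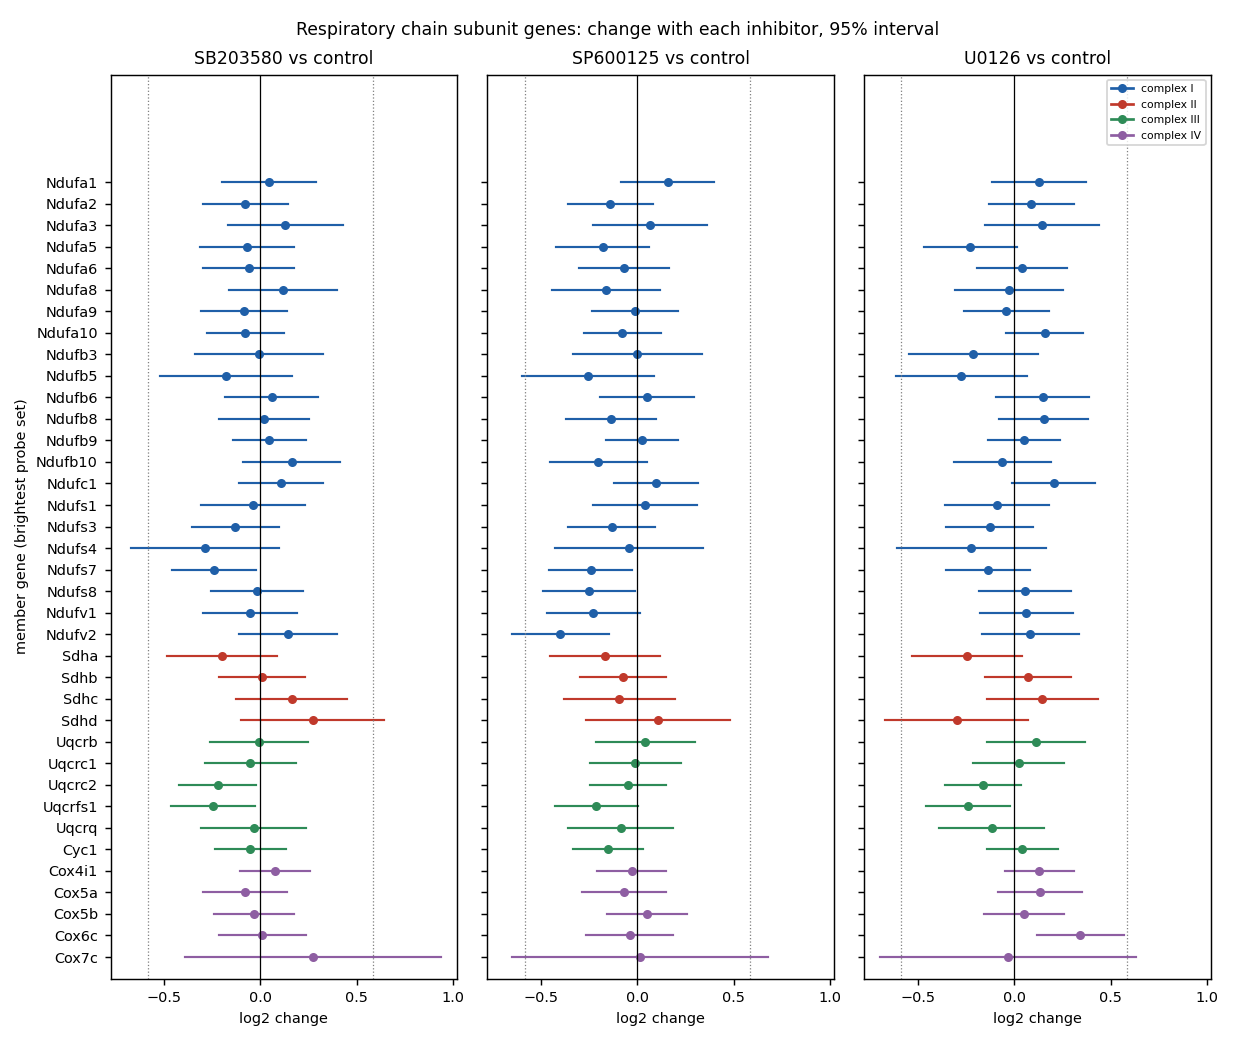
Log2 change of each of the 37 measured subunit genes with SB203580, SP600125 and U0126 against control (points, limma; bars, 95% intervals; n = 3 samples a group), coloured by complex, with dotted lines at 1.5-fold. Most intervals lie between the dotted lines and cross 0, the widest are those of Cox7c, and Ndufv2 with SP600125 lies lowest at -0.40.

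The median change of the 37 members was -0.03 with SB203580, -0.07 with SP600125 and 0.04 with U0126, and the same medians over all genes were 0.01, -0.00 and 0.05. With SB203580, 15 members had a positive and 22 a negative change, between -0.29 (Ndufs4) and 0.27 (Cox7c). With SP600125, 11 were positive and 26 negative, between -0.40 (Ndufv2) and 0.16 (Ndufa1). With U0126, 21 were positive and 16 negative, between -0.30 (Sdhd) and 0.34 (Cox6c). Median centring of the arrays moved the U0126 change of all probe sets by -0.10, and on that scale the member median with U0126 was -0.06, with 11 positive and 26 negative. The median over all probe sets was -0.05 on that scale. After quantile normalization the U0126 member median was 0.02, with 20 positive and 17 negative. The direction of the U0126 median thus turned with median centring but not with quantile normalization. The SP600125 median stayed negative, at -0.09 after median centring and -0.08 after quantile normalization. By replicate, the SP600125 median was -0.05, -0.07 and -0.12, negative in all 3, whereas the SB203580 medians were 0.06, 0.04 and -0.04.

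Groups were also compared by whether they overlapped within both array types, so that every inhibitor sample lay on the same side of every control sample of its array type. With SP600125, 9 of 37 members did not overlap control and all 9 were lower, where 25.2% of all genes did not overlap in either direction and 13.2% were lower. These 9 were Ndufa2, Ndufa5, Ndufb5, Ndufb10, Ndufs7, Ndufs8, Ndufv2, Uqcrfs1 and Cyc1. With U0126, 7 did not overlap control, of which 6 were higher, where 24.4% of all genes did not overlap and 14.4% were higher. They were Ndufa2, Ndufa10, Ndufb8, Ndufc1, Cox4i1 and Cox6c, with Uqcrfs1 lower. With SB203580, 6 did not overlap (Sdhc, Sdhd and Cox7c higher, Ndufs7, Uqcrc2 and Uqcrfs1 lower), where the share of all genes was 26.4%. Uqcrfs1 was the one member below control without overlap in all 3 comparisons, which share the same control samples.

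Summed markers of cell types of the blastocyst differed between the same groups. Primitive endoderm markers summed to 5260, 8972 and 10957 with SB203580, 4834, 8024 and 7463 with SP600125, 3836, 5961 and 7676 with U0126, and 5093, 11260 and 11063 in control blastocysts. These sums were lower than control without overlap with SP600125 and with U0126. Gata6, the brightest marker of this list, was instead higher than control with SP600125, at 3815, 5279 and 5178.5 against 2720, 4895 and 5088. The other markers of the list were lower than control with SP600125. Trophectoderm markers summed to 35201, 91021 and 93907 with SB203580, 41832, 100454 and 108854 with SP600125, 42055, 101203 and 108579 with U0126, and 39543, 97103 and 106149 in control blastocysts, lower than control without overlap with SB203580. Markers of the inner cell mass and epiblast summed to 3751, 8527 and 9149 with SB203580, 3855, 8512 and 8347 with SP600125, 5200, 10667 and 10034 with U0126, and 2906, 7665 and 8561 in control blastocysts, higher than control without overlap with U0126. Nanog, of the inner cell mass list, did not follow with U0126, at 1161, 1883 and 1047 against 1111, 1763.5 and 2376 in control blastocysts. The other markers of that list were higher with U0126. Uterine and oviduct markers, mostly Wfdc2, summed lower than control without overlap with SB203580 and SP600125. Ovgp1 of that list was instead higher with SP600125, at 161.2, 213.5 and 147.5 against 135.4, 123.5 and 121.1. Blood and immune markers summed higher with U0126, at 398.2, 412.4 and 458 against 390.2, 169.3 and 319 in control blastocysts. Most of them were near or below the array medians on the 430 2.0 arrays. In replicate 1 Ptprc and Cd68 were lower with U0126, and Hba-a1, Lyz2 and Cd52 higher. The part of these markers in the member differences from control was not tested.

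In complex I the 22 measured genes had median changes of -0.03 with SB203580, -0.11 with SP600125 and 0.04 with U0126, of which the last turned to -0.06 after median centring. Ndufv2, Ndufv1 and Ndufs1 belong to the arm that takes electrons from NADH, and Ndufv2 carries an iron-sulfur cluster. With SP600125 their changes were -0.40 ± 0.12 (SE) for Ndufv2, -0.23 ± 0.11 for Ndufv1 and 0.04 ± 0.13 for Ndufs1. The accessory subunit Ndufs4, which is needed for a stable NADH arm, had changes of -0.29 ± 0.18 with SB203580, -0.04 with SP600125 and -0.22 with U0126. One sample stood apart for this gene: replicate 3 of SB203580 read 2087, where replicate 2 read 3695 and the control samples on the same array type 4049 and 3469. None of these genes was called against control.

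Ndufs7 and Ndufs8, which carry the iron-sulfur clusters next to the quinone site, had the next largest negative statistics with SP600125. Ndufs7 had signals of 4845, 10852 and 9721 with SP600125, against 5716, 13057 and 11334 in control blastocysts, a change of -0.24 ± 0.10 (adjusted p = 0.515, limma). Every SP600125 sample lay below the control samples of its array type. Ndufs7 also read lower with SB203580, at 5234, 10571 and 9264, a change of -0.24 ± 0.10 (adjusted p = 0.451, limma), again without overlap. Ndufs8 had signals of 2411, 10281 and 8868 with SP600125, against 3107, 11589 and 10337 in control blastocysts, a change of -0.25 ± 0.11 (adjusted p = 0.552, limma). None of these shifts passed the test. Ndufs3, a core subunit of the same region, had changes of -0.13 with each of the 3 inhibitors.

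The accessory subunits of complex I, most of them in the membrane arm, lay on both sides of control. With SB203580 the highest were Ndufb10 (0.16) and Ndufa3 (0.13), and the lowest besides Ndufs4 and Ndufs7 was Ndufb5 (-0.18). With SP600125 the highest were Ndufa1 (0.16) and Ndufc1 (0.10), and Ndufb5 (-0.26) was second lowest after Ndufv2. With U0126 the highest were Ndufc1 (0.20) and Ndufa10 (0.16), and the lowest were Ndufb5 (-0.27) and Ndufa5 (-0.23). For Ndufb5 the log2 differences of replicates 1 to 3 from control were -0.73, 0.20 and -0.01 in SB203580 blastocysts. They were -0.54, -0.06 and -0.17 in SP600125 blastocysts and -0.90, 0.22 and -0.14 in U0126 blastocysts. Replicate 1 was the lowest with each inhibitor, and with SP600125 alone all 3 were negative. Ndufb9 was the steadiest member, with changes of 0.05, 0.02 and 0.05 and signals between 14717 and 16610 on all 8 arrays of type 430 2.0.

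Complex II had median changes of 0.09 with SB203580, -0.09 with SP600125 and -0.09 with U0126 across its 4 genes, none of them called. Sdha, the flavoprotein that oxidises succinate, had negative changes with all 3 inhibitors, of -0.20, -0.17 and -0.25 (SE 0.14 each). Sdhb, the iron-sulfur subunit, had changes of 0.01, -0.08 and 0.07. The membrane anchors were Sdhc, at 0.16, -0.09 and 0.14, and Sdhd, at 0.27, 0.11 and -0.30. Sdhd was the most variable of the 4. It had signals of 1079, 2461 and 2311 with SB203580, 1207, 1881 and 1921 with SP600125, 983.2, 1501 and 1260 with U0126, and 782.1, 2213 and 2009 in control blastocysts. On the 430 2.0 arrays the U0126 samples were the lowest and the SB203580 samples the highest, while in replicate 1 control was lowest. The U0126 change of Sdhd was therefore positive in replicate 1 (0.33) and negative in replicates 2 and 3 (-0.49 and -0.74).

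In complex III 6 of 6 changes with SB203580 were negative, with a median of -0.05. That count rested on small values: the change of Uqcrb was -0.01, with -0.34 in replicate 1 and 0.16 in replicates 2 and 3, and it was 0.16 on the 430 2.0 arrays alone. The change of Uqcrq, at -0.04, became 0.22 without probe sets of the _x_at and _s_at kind. It was then read by the dim probe set 1427880_at, with a mean of 92.45 on the 430 2.0 arrays, against 6700 for the brightest. Uqcrfs1, the Rieske iron-sulfur protein, had signals of 5024, 8223 and 8479 with SB203580, 5535, 8271 and 8212 with SP600125, 4516, 9362 and 8375 with U0126, and 5697, 9874 and 10397 in control blastocysts. Control was the highest group in each array type. The changes were -0.25 ± 0.10 with SB203580 (adjusted p = 0.432), -0.21 ± 0.10 with SP600125 (adjusted p = 0.599) and -0.24 ± 0.10 with U0126 (adjusted p = 0.358, limma). Uqcrc2, a core subunit, had changes of -0.22 ± 0.09 with SB203580, -0.05 with SP600125 and -0.16 with U0126. Its partner Uqcrc1 had changes of -0.05, -0.01 and 0.02, and Cyc1, which encodes cytochrome c1, of -0.05, -0.15 and 0.04. Uqcrb and Uqcrq lay between -0.12 and 0.11. Whether complex III differed from the other complexes was not tested.

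In complex IV the 5 measured genes had median changes of 0.01 with SB203580, -0.03 with SP600125 and 0.13 with U0126. That for SB203580 turned to -0.00 after median centring and -0.03 after quantile normalization, and the U0126 median was 0.03 after either. Cox6c, a small nuclear-encoded subunit, gave the largest positive statistic with U0126 among the members. It had signals of 5065, 23325 and 23484 with U0126, against 3289, 19250 and 21447 in control blastocysts. All U0126 samples were above the controls of their array type, and the change was 0.34 ± 0.11 (adjusted p = 0.192, limma). Replicate 1 held most of it, with a log2 difference of 0.62, against 0.20 and 0.21 in replicates 2 and 3. The other Cox6c probe set, 1415970_at, was nearly as bright and had a U0126 change of 0.01. In replicate 1 it read 9215 with U0126 and 10561 in the control sample. Cox4i1, a regulatory subunit, had changes of 0.08, -0.03 and 0.13, Cox5a of -0.08, -0.07 and 0.13, and Cox5b of -0.03, 0.05 and 0.05. Cox7c had a change of 0.27 ± 0.31 with SB203580 on a dim probe set.

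**Figure D2:**
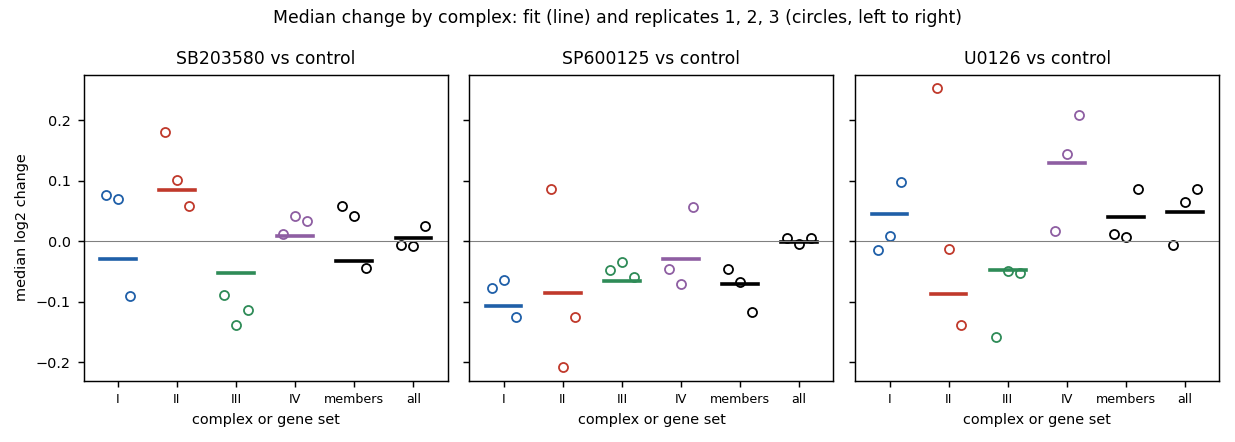
Median log2 change with SB203580, SP600125 and U0126 against control for complexes I to IV, for all 37 members and for all genes tested (lines, fit; open circles, replicates 1 to 3, n = 3 samples a group). Medians of the fit lie between -0.11 and 0.13, and the replicates of complex II spread the most.

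The subunit genes varied little across samples. The highest signal was 1.31 times the lowest over the 8 arrays of type 430 2.0 for the median member, against 1.99 times for the median gene. On the 430A and 430B arrays the figures were 1.27 and 1.52. Members ranged between 1.13 times for Ndufb9 and 2.48 times for Cox7c on the 430 2.0 arrays, followed by Sdhd at 1.95 and Ndufs4 at 1.94. In replicate 1 the widest was Ndufv2 at 1.90. The residual standard deviation had a median of 0.14 log2 for members, between 0.10 and 0.39, against 0.29 for all genes. Members other than Cox7c were far above the array medians, and bright probe sets vary less on such arrays. The part of brightness in the low spread was not tested.

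**Figure D3:**
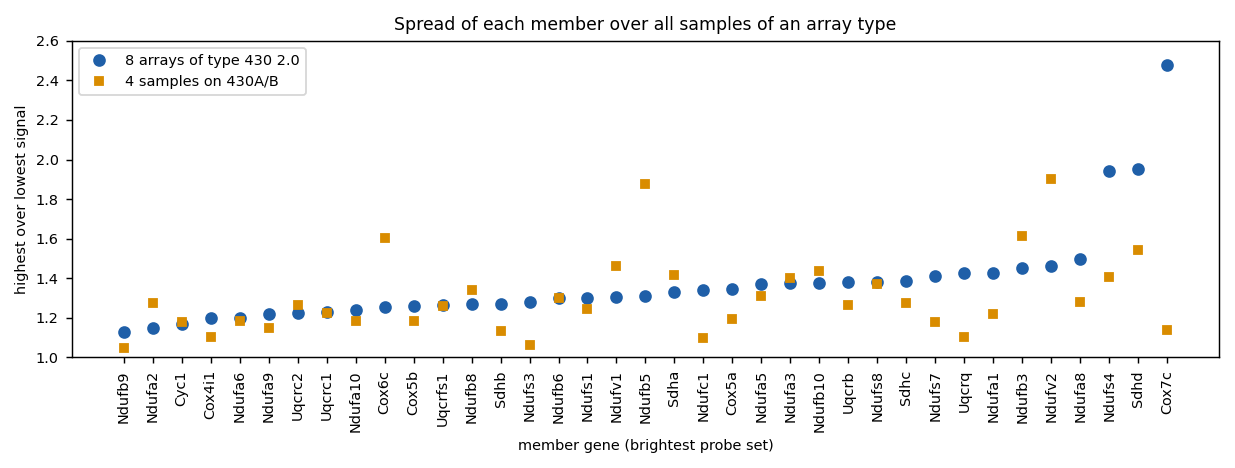
Highest over lowest signal of each measured subunit gene over the 8 samples on 430 2.0 arrays (circles) and the 4 samples on 430A and 430B arrays (squares), ordered by the 430 2.0 value. Most genes lie below 1.5 on both, Cox7c reaches 2.48 on the 430 2.0 arrays and Ndufv2 1.90 on the 430A array.

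Between inhibitors 1 member differed. Among the 37, Ndufv2 alone was called in any of the 6 comparisons in the fit of all samples. It passed the test of any difference among the 4 groups (adjusted p = 0.0453, limma F statistic, which called 4.43% of all genes), and the next member, Cox6c, did not (adjusted p = 0.125). The brightest Ndufv2 probe set had signals of 5167, 13161 and 11910 with SB203580, 2714, 9802 and 9801 with SP600125, 4129, 12046 and 14339 with U0126, and 4364, 11457 and 11999 in control blastocysts. SP600125 was the lowest group in both array types, without overlap with any of the other groups.

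Ndufv2 was higher in SB203580 than in SP600125 blastocysts by 0.54 ± 0.12 log2 (adjusted p = 0.0399, limma, n = 3 samples a group). Replicate differences were 0.92, 0.43 and 0.28. It was the one member called of 37, where 1.06% of all genes were called (134 genes). Without replicate 1 the difference on the 430 2.0 arrays was 0.35 (adjusted p = 0.314), and leaving out any SB203580 or SP600125 sample ended the call, as did leaving out replicate 2 of U0126 or replicates 2 or 3 of control. Of its other probe sets, 1428179_at was called at 0.50 (adjusted p = 0.031) and 1452692_a_at was not, at 0.39 (adjusted p = 0.117). The suffix of the brightest, 1438159_x_at, marks probes that can bind other transcripts. Summed trophectoderm markers were lower and summed primitive endoderm markers higher with SB203580 than with SP600125, both without overlap. Gata6 of the primitive endoderm list was instead lower with SB203580, at 2995, 4818 and 4920.5 against 3815, 5279 and 5178.5 with SP600125. The SP600125 sample of replicate 1 also read lowest for Foxl2. The part of these markers in the Ndufv2 difference was not tested.

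Ndufv2 was lower in SP600125 than in U0126 blastocysts by a log2 difference of -0.48 ± 0.12 (adjusted p = 0.0382, limma). The replicate differences were -0.60, -0.42 and -0.42. It was again the one member called, where 4% of all genes were called (504 genes), so 1 of 37 is below the background share. The probe set 1452692_a_at was called at -0.50 (adjusted p = 0.016) and 1428179_at was not, at -0.38 (adjusted p = 0.059). Leaving out any SP600125 or U0126 sample, or replicate 2 of SB203580, ended the call. After median centring the difference was -0.40 (adjusted p = 0.0832). Against control, Ndufv2 had changes of 0.14 ± 0.12 with SB203580 (adjusted p = 0.785), -0.40 ± 0.12 with SP600125 (adjusted p = 0.225) and 0.08 ± 0.12 with U0126 (adjusted p = 0.831), none of which passed the test.

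**Figure D4:**
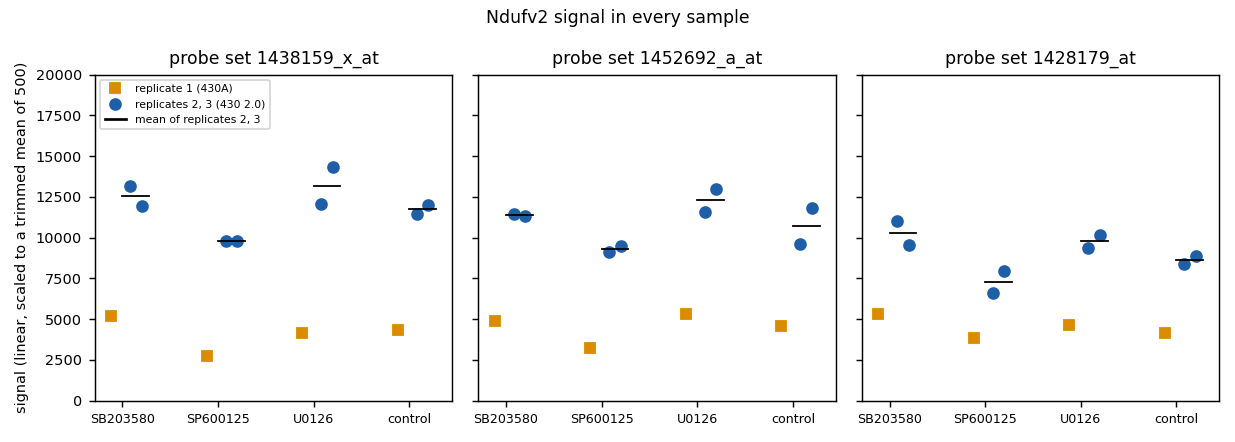
Signal of the 3 Ndufv2 probe sets in each sample of the SB203580, SP600125, U0126 and control groups (squares, replicate 1 on the 430A array; circles, replicates 2 and 3 on 430 2.0 arrays; lines, mean of replicates 2 and 3). SP600125 is the lowest group for each probe set within each array type, and the array types are not on 1 scale.

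Of all members, 23 had a negative and 14 a positive difference between SP600125 and U0126 on the deposited scale, all but Ndufv2 without a call. The member median was -0.08, against -0.06 for all genes, and became 0.01 after median centring. At an unadjusted limma p under 0.05 there were 9 members (24.3%), against 20.5% of all genes. Groups did not overlap for 15 members, where 31.4% of all genes did not overlap, and 13 of them were lower with SP600125, where 18.2% of all genes were lower. Cox6c came closest to a call, with signals of 3157, 18727 and 21127 with SP600125 and 5065, 23325 and 23484 with U0126, a difference of -0.38 ± 0.11 (adjusted p = 0.0643, limma). Ndufs8 (-0.31), Ndufv1 (-0.29), Ndufb8 (-0.29), Ndufa10 (-0.24) and Cyc1 (-0.19) followed, and Sdhd (0.41) was the highest. The other Cox6c probe set, 1415970_at, had signals of 9919, 21847 and 18001 with SP600125 and 9215, 21330 and 19477 with U0126. Summed markers of the inner cell mass and epiblast, and those of uterus and oviduct, were lower with SP600125 than with U0126, again without overlap. Nanog of the inner cell mass list was instead higher with SP600125, at 1929.5, 2858 and 2824 against 1161, 1883 and 1047 with U0126. Ovgp1 of the uterine and oviduct list was higher as well, at 161.2, 213.5 and 147.5 against 79.9, 123.5 and 76.7. The part of these markers, and of the higher median signal of the U0126 arrays, in the member differences was not tested.

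Between SB203580 and SP600125 the member median was 0.02, and 8 members did not overlap, where 29.4% of all genes did not. After Ndufv2, the largest statistics belonged to Ndufb10 (0.36 ± 0.12, adjusted p = 0.213), Ndufa8 (0.28 ± 0.13, adjusted p = 0.463) and, in the other direction, Uqcrc2 (-0.17 ± 0.09, adjusted p = 0.553). Between SB203580 and U0126 no member was called, where 1.96% of all genes were called (247 genes), and 3 had an unadjusted limma p under 0.05. There the member median was -0.06, which turned to 0.03 after median centring, and 10 members did not overlap, where 27.6% of all genes did not. Sdhd was higher with SB203580 by 0.57 ± 0.18 (adjusted p = 0.137) and Cox6c lower by a difference of -0.33 ± 0.11 (adjusted p = 0.153, limma). On the 430 2.0 arrays alone the Sdhd difference was 0.79 and passed the test (adjusted p = 0.0448), and in replicate 1 it was 0.13. Between these groups summed trophectoderm, inner cell mass and uterine and oviduct markers were lower with SB203580, and those of primitive endoderm higher, all without overlap. Of the inner cell mass list, Sox2 and Fgf4 were lower with SB203580, but Nanog and Pou5f1 did not follow. Nanog read 1403, 1717 and 2308 with SB203580 against 1161, 1883 and 1047 with U0126. Pou5f1 read 1454, 4147 and 4152 against 2038, 4089 and 3761. Cdx2, Gata3, Krt8 and Tfap2c of the trophectoderm list overlapped, as did Gata4 and Sox17 of primitive endoderm. The part of these markers in the differences was not tested.

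Several probe sets read most genes and did not always move together. Of 23 members with more than 1 tested probe set, all tested probe sets of a gene had the same sign of change for 10 genes with SB203580, 13 with SP600125 and 14 with U0126. Signs were mixed with all 3 inhibitors for Ndufa3, Ndufs4, Uqcrq and Cox5b. They were mixed with 2 inhibitors for Ndufa5, Ndufb8, Ndufs8, Sdha, Sdhd, Uqcrb, Cox6c and Cox7c, and with 1 for Ndufa10, Ndufc1, Ndufv1 and Sdhc. The dimmer probe sets of Ndufs4 ran between -1.02 and 0.21 with U0126, and those of Uqcrq between -0.53 and 0.25 with SP600125. No probe set of any member was called against control. Of 79 member probe sets, 1 each of Ndufb9, Sdha and Cox5b were too dim to be tested.

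Genes around the chain were not called against control either. The count was 0 with each inhibitor among 16 ATP synthase genes, 19 tested genes of other subunits of complexes I, III and IV, 5 tissue-specific isoforms of complex IV, 39 assembly factors, 15 genes of cytochrome c, the electron transfer flavoprotein and coenzyme Q, 18 of the citrate cycle and pyruvate dehydrogenase, and 21 of mitochondrial biogenesis and DNA maintenance. Median changes of the other-subunit list were 0.09 with SB203580, -0.05 with SP600125 and 0.05 with U0126, and those of ATP synthase 0.02, -0.03 and -0.01. The median of the isoform list lay at -0.21, -0.17 and -0.18.

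Between SP600125 and U0126, where 4% of all genes were called, 6 of the 133 tested genes of these lists were called (4.51%), near the background share. In the other-subunit list, 2 of 19 were lower with SP600125. Uqcr10, a small subunit of complex III, had signals of 1819, 3900 and 3880 with SP600125 and 2606, 5712 and 7381 with U0126, a difference of -0.66 ± 0.13 (adjusted p = 0.0112). Ndufab1, the mitochondrial acyl carrier protein and a complex I subunit, had signals of 1868, 6060 and 6146 with SP600125 and 2533, 8923 and 9929 with U0126, a difference of -0.56 ± 0.10 (adjusted p = 0.00736, limma). Both genes were lower in all 3 replicates. Their dimmer probe sets were not called and lay at -0.11 and 0.07 for Uqcr10 and between -0.56 and 0.56 for Ndufab1. Without probe sets whose names end in _x_at or _s_at, or with the mean over its probe sets, Ndufab1 was not called. Among 39 assembly factors, 2 were lower with SP600125, Coa7 for complex IV (-0.66 ± 0.16) and Uqcc2 for complex III (-0.60 ± 0.16), and 1 was higher, Cox18, which inserts a subunit of complex IV into the membrane (0.50 ± 0.12). Of 18 citrate cycle genes 1 was lower, Idh2, the mitochondrial isocitrate dehydrogenase that makes NADPH (-0.75 ± 0.12, adjusted p = 0.00304, limma). Its signals were 1098, 2002 and 2205 with SP600125 and 1855, 3774 and 3293 with U0126, and its dimmer probe set lay at -0.28. Idh2 and Ndufab1 were called in each of the 12 fits that left out 1 sample and Uqcr10 in 10 of them, against 7 for Coa7, 7 for Cox18 and 2 for Uqcc2, whose adjusted p reached 0.208 over the alternatives run. The Uqcr10 call was lost without SP600125 replicate 3 or U0126 replicate 3. Those of Coa7 and Cox18 were lost without any 1 of the SP600125 samples or U0126 replicate 1 or 3, and that of Uqcc2 was kept only without SB203580 replicate 1 or 3. After median centring Coa7 and Uqcc2 were not called, and on 430 2.0 arrays only, or with only the 2 groups compared, Coa7, Uqcc2 and Cox18 were not. The part of the markers that differed between SP600125 and U0126 in these differences was not tested.

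Cox18 was also the one gene of these lists called between SB203580 and U0126, higher with SB203580 by 0.62 ± 0.12 (adjusted p = 0.0158, limma). It was 1 of the 133 (0.752%), below the 1.96% of all genes. That call was lost without SB203580 replicate 2 or U0126 replicate 1 or 3, on 430 2.0 arrays only and with only the 2 groups compared. Summed embryonic markers differed between these groups without overlap, and their part in the Cox18 difference was not tested. The Cox18 signals were 2988, 3839 and 3229 with SB203580, 3199, 3166 and 2835 with SP600125, 1943, 2417 and 2140 with U0126, and 2772, 3080 and 2836 in control blastocysts. U0126 was the lowest group in both array types. Some probe sets other than the brightest were called as well. For the ATP synthase gene Atp5j2, 1416269_at differed by 0.61 between SB203580 and SP600125 and by -0.61 between SP600125 and U0126, while its brightest probe set differed by 0.06 and -0.21 and was not called. Between SP600125 and U0126 this also held for a pair of dimmer Ndufa7 probe sets (-0.69 and -0.45) and 1 of Coq10b (0.99).

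**Figure D5:**
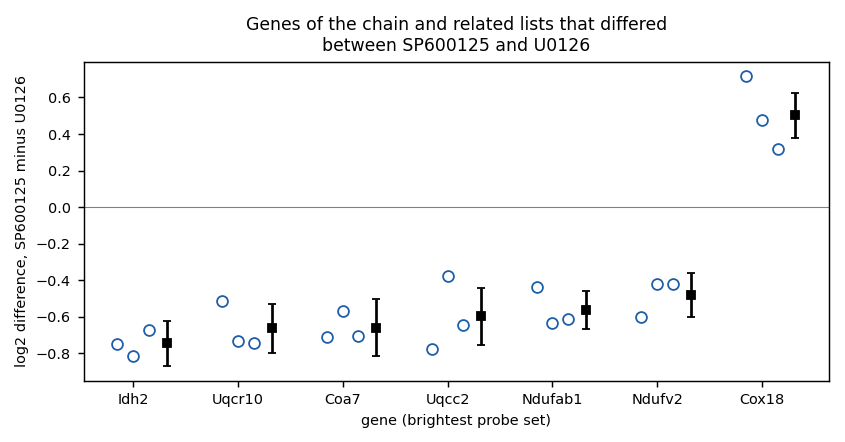
Log2 difference, SP600125 minus U0126, of the genes of the chain and the related lists that were called by their brightest probe set (open circles, replicates 1 to 3; squares, fit with standard error, n = 3 samples a group). Of the 7 genes 6 lie below 0, from Idh2 at -0.75 to Ndufv2 at -0.48, and Cox18 lies above it at 0.50.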

How the data were processed

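Gene expression was measured in 12 blastocyst samples, 4 groups of 3, on 16 Affymetrix arrays. The deposited values are intensity on a linear scale, 1 signal per probe set, scaled by the authors so that each array's mean with 2% trimmed at each end was 500, which was checked on every array. Software, background correction and probe summary were not given in the sources used here. For each group the 430A and 430B arrays were joined into 1 sample, and 100 probe sets on both entered once. Arrays give no counts, and their number limits the precision.

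Signals plus 12.6 (the 20th percentile of the 430 2.0 values) were put on the log2 scale. Of 45037 probe sets, 27022 with a mean on the 430 2.0 arrays at or above the 40th percentile were tested. Among the 45037, 34945 named 1 gene in the platform annotation, 932 several and 9160 none. limma 3.58.1 in R 4.3.3 fitted the 4 groups with array type as a fixed block and moderated by an intensity trend (7 residual and, at the median, 9.71 prior degrees of freedom). Tests were two-sided and adjusted by Benjamini-Hochberg over all tested probe sets. Errors are standard errors, and replicate differences were taken from the mean of the second group on the same array type. The scripts were tested on simulated data.

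Named genes were those called, the extremes of each complex, the largest statistics in each direction and the called genes of related lists. Members, lists and most choices were made with earlier results of these data known, so no list was tested as a set. Same-numbered samples of different groups did not deviate together (correlations of 0.02 to 0.09 over 6 pairs of groups), so the numbers were not used as pairs. Alternatives were other constants, filters, scalings, models, probe sets and the omission of each sample. Protein sequences were not used here.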

Additional observations from a re-analysis of the deposited data

Results flagged for a closer look

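In the fit of all samples Ndufv2 was the one member whose difference between inhibitors passed a test of that difference. It was higher in SB203580 than in SP600125 blastocysts (log2 difference 0.54) and lower in SP600125 than in U0126 blastocysts (log2 difference -0.48), in all 3 replicates of each comparison, and both comparisons share the SP600125 samples. These are 2 of the 111 differences between inhibitors tested over the 37 members. Around the chain, 7 differences of 6 genes passed the same test, 6 of 133 genes between SP600125 and U0126 (4.51%, against 4% of all genes) and 1 between SB203580 and U0126 (0.752%, against 1.96%). For SP600125 against U0126 they were -0.66 for Uqcr10, -0.56 for Ndufab1, -0.66 for Coa7, -0.60 for Uqcc2, 0.50 for Cox18 and -0.75 for Idh2, and for SB203580 against U0126 0.62 for Cox18.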

How the results depend on the processing

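Over 2661 recomputed changes of single members against control, 0 were called, 2583 moved by less than the spread between replicates and 78 by more. Other filters, the fit with no intensity trend, the replicate block and the fit of only the 2 groups left a change as it was. So did the omission of a sample from a group not compared. Those alternatives could alter calls only, so part of the 2583 was fixed in advance. The count of members called against control stayed 0 for each inhibitor under every alternative run. Between SB203580 and SP600125 the count became 0 with a constant of 1, with no filter on dim probe sets, on 430 2.0 arrays only, with no intensity trend and without _x_at and _s_at probe sets. Between SP600125 and U0126 it became 0 with no filter, with median centring, with only the 2 groups compared, on 430 2.0 arrays only and with no intensity trend, and 2 (Ndufv2 and Cox6c) with a filter at the 60th percentile. Between SB203580 and U0126 it became 1 (Sdhd) on 430 2.0 arrays only. Leaving out each of the 12 samples in turn gave counts of 0 to 1 in SB203580 against SP600125 (0 in 9 of 12) and of 0 to 1 in SP600125 against U0126 (0 in 7 of 12). Why the counts moved between settings was not tested.

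The member median with U0126 against control was -0.063 with median centring, where it was 0.04 as deposited. For SP600125 against U0126 it was 0.0099 with median centring and -0.120 on 430 2.0 arrays only, where it was -0.08. The Ndufv2 difference kept its direction under all alternatives run, between 0.35 and 0.63 for SB203580 against SP600125 (adjusted p 0.027 to 0.348) and between -0.54 and -0.35 for SP600125 against U0126 (adjusted p 0.0148 to 0.216). With the replicate block in place of array type its adjusted p was 0.0418 and 0.0367 (limma), and no call of a member changed. Related genes called in the fit of all samples stayed called there, and other related genes were not followed over the alternatives. The differences of the called related genes kept their direction throughout. For these genes and Ndufv2, the alternatives named above that leave a change as it was could not turn a direction. With no intensity trend none of them was called, and when probe sets of a gene were averaged the calls of Coa7, Idh2, Ndufab1, Uqcc2 and Uqcr10 were lost. Calls over all probe sets ranged between 1 and 140 with SB203580 against control (105 as reported), 8 and 193 with SP600125 (160), 2 and 204 with U0126 (121), 23 and 318 for SB203580 against SP600125 (213), 36 and 498 for SB203580 against U0126 (371) and 130 and 1024 for SP600125 against U0126 (791), each lowest with no intensity trend. Signal over background limits Cox7c, the dimmest member.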

Other observations

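One mitochondrially encoded gene was found among the annotated probe sets by the symbol ND5, a core subunit of the proton-pumping arm of complex I, and was chosen after the annotation was seen. It had signals of 8489, 17751 and 16557 with SB203580, 10069, 18553 and 16990 with SP600125, 8366, 18699 and 19802 with U0126, and 11112, 14266 and 16565 in control blastocysts. Control held the highest signal in replicate 1 and the lowest on the 430 2.0 arrays. The changes against control were -0.02, 0.09 and 0.08 (SE 0.13 each), none of them called (adjusted p of at least 0.85, limma). No symbol with the prefix of mitochondrial genes was measured.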
